A study of Mus musculus with 15 samples.

Results

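Potassium channel family genes were compared across 5 sorted populations of mouse mammary epithelial cells (MECs) measured on 15 Affymetrix whole-genome mouse arrays, 3 arrays per population. The members were all genes whose annotated symbol begins with Kcn, continues with at least 1 further letter and then a digit, and each was read from the brightest of its probe sets by mean log2 intensity over the 15 arrays. By this rule 84 of the 18194 genes with a probe set carrying a single symbol were members. They comprised 13 Kv pore subunits, 3 Kcnq pore subunits, 6 Kcnh pore subunits, 9 silent modifier subunits, 15 inward rectifiers, 12 tandem-pore channels, 8 calcium- or sodium-activated channels and 15 auxiliary subunits. The remaining 3, Kcnq1ot1, Kcnmb4os1 and Kcnmb4os2, are RNA genes that encode no channel subunit. Intensities are on the linear scale as deposited, and differences are on the log2 scale.

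Mammary stem cell-enriched basal cells (MaSC, lineage-negative, CD24+, CD29 high), luminal progenitors (LP, lineage-negative, CD24 high, CD29+, CD61+) and mature luminal cells (ML, the CD61- counterpart) were sorted from 3 suspensions of mammary glands of adult virgin wild-type C57BL/6 females. Alveolar luminal cells (AL) and alveolar luminal stem/progenitor cells (ALP) were YFP+, lineage-negative cells of adult Wap-Cre;R26Y females on the C57BL/6 background, taken at midgestation for AL and from virgins for ALP. In these mice Cre is driven by the promoter of the milk gene Wap and switches on the conditional R26Y reporter, so that descendants of a marked cell stay marked. AL and ALP therefore shared a genotype and a sort gate that the other populations did not, and in comparisons of AL with LP or ML the stage, the genotype and the gate cannot be told apart. Whether AL or ALP replicates came from separate animals is not given in the sources used here, so the p-values can reflect technical spread among the arrays alone.

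Potassium channels let potassium ions leave the cell and so set the membrane voltage. In secretory epithelia this voltage drives chloride and fluid secretion, and calcium-activated and constitutively open potassium channels on the basolateral side are known for this role. Pore subunits form the channel, auxiliary subunits such as the Kcne and Kcnmb proteins change its gating, and silent modifier subunits conduct only when joined with other pores. The mammary gland holds secretory luminal cells beside contractile basal cells, which share many genes with smooth muscle.

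Upstream sequences were taken for members whose patterns opposed each other in some populations or ran together. Of the 84 members, 64 had at least 1 promoter, 89 in all, in the RefSeq promoter table (GRCm38.p6), which gives 250 bases before and 50 after a start site. Kcnk5 and Kcnk16 are tandem-pore channels that lie 79592 bases apart on chromosome 14, and Kcnk5 was lowest in the population in which Kcnk16 was highest. Kcnf1 and Kcnq5 are shown because both were highest in MaSC. The 250 bases before the outermost start site of each are printed on the gene's strand, with the RUNX core TGTGGT and the GC box GGGCGG, on either strand, in capitals. Runx1, which binds the RUNX core, was the gene the study was about.
Kcnk5, chr14:20181783-20182032, minus strand: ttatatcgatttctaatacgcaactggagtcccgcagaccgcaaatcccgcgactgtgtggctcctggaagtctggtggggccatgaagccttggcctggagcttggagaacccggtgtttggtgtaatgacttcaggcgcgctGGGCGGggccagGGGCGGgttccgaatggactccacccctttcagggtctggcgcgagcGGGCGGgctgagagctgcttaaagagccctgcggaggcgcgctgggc
Kcnk16, chr14:20269270-20269519, minus strand: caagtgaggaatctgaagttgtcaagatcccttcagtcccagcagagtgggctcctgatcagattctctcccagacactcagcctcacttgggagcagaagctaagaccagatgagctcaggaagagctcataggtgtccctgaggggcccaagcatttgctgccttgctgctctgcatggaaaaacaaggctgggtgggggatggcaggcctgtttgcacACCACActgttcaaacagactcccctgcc
Kcnf1, chr12:17176889-17177138, minus strand: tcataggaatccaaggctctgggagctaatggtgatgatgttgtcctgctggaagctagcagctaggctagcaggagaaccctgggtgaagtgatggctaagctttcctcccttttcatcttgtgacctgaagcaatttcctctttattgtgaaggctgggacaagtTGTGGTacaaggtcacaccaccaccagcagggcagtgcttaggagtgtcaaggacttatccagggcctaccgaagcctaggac
Kcnq5, chr1:21962651-21962900, minus strand: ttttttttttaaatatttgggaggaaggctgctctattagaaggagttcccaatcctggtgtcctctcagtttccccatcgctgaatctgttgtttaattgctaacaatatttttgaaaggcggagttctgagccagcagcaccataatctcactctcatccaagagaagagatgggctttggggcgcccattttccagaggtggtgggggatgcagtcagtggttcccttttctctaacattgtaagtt

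The Kcnk5 stretch held 3 GC boxes and no RUNX core, those of Kcnk16 and Kcnf1 held 1 RUNX core each and no GC box, and that of Kcnq5 held neither. Over whole 300-base promoters, a RUNX core occurred in 16.8% of 32851 promoters and in 11 of the 89 promoters of members, and a GC box in 35.7% and in 43 of 89. Kcnn4 was singled out after the matches were counted, because its promoter (start site inside the RefSeq gene interval) held 4 RUNX cores, at 226, 213, 190 and 102 bases before the start site. At least 4 matches were found in 15 promoters, 0.0457% of the table. The 30 bases around the first pair of cores were as follows.
Kcnn4, chr7:24370032-24370061, plus strand: tgctcTGTGGTgtctgggTGTGGTgggggt

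The arrays had median intensities between 137 and 209.9, and a member was tested if it exceeded the array median on at least 3 of the 15 arrays. Of the 84 members 24 did, and 60 were too dim: 51 exceeded the median on no array, 8 on 1 array and 1 on 2 arrays. Among the 24, Kcna6, Kcnf1, Kcnip3 and Kcnmb1 exceeded it only in MaSC and Kcnh2 only in ML. These thus passed through the population in which they were high. Kcnq5 outside MaSC and Kcnk6 outside AL exceeded the median only on the third ALP array. Kcnk1, Kcnn4, Kcnk5 and Kcnq1ot1 exceeded it on all 15 arrays. Of the summed marker intensities, the 10 basal markers gave 98915 to 104973 in MaSC against 1795 to 48435 elsewhere, and the 7 milk genes 70077 to 80615 in AL against at most 25377. Luminal markers were also bright in MaSC, with a sum over 8 genes of 65110 to 80554 against 86442 to 96219 elsewhere, and the mature luminal sum, 43195 to 47523 in ML, was 27414 on the first MaSC array, above every LP array (10996 to 17506). The third ALP array stood apart, with a leukocyte marker sum of 41197 against at most 2769 on the other 14 arrays, an endothelial sum of 21481 against at most 5332, and the lowest correlation within a population, 0.901 over genes. ALP comparisons are therefore also given without it. Fibroblast markers were not confined to that array, with sums of 37073 to 55005 in LP, 30828 to 42816 in AL and 48473 to 95620 in ALP, against 1698 to 6256 in ML and 8757 to 11750 in MaSC.

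Across the 5 populations, 20 of the 24 tested members passed limma's moderated F test (83.3%), close to the 84.7% of all 12108 genes tested. The 4 that did not pass were Kcnc1, Kcnc4, Kcnh1 and Kcnh3, so that 2 of 4 Kv pore subunits and 1 of 3 Kcnh pore subunits passed, with all tested members of the other classes. Of the 20 members, 7 had their highest mean in MaSC, 5 in ML, 4 in LP, 2 in AL and 2 in ALP. Of the 7, 4 were tested through MaSC alone and 3 through more populations. Among these 3, Kcnq5 exceeded the array median outside MaSC only on the third ALP array. ML was the lowest population for 11 of the 20 (55%, against 27.1% of all genes that passed), although it was also the highest for 5. These shares describe where the members lay and were not tested. The ML arrays also had the lowest median intensities of the series, 136.8 to 138.6, whose part in these shares was not tested.

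**Figure D1:**
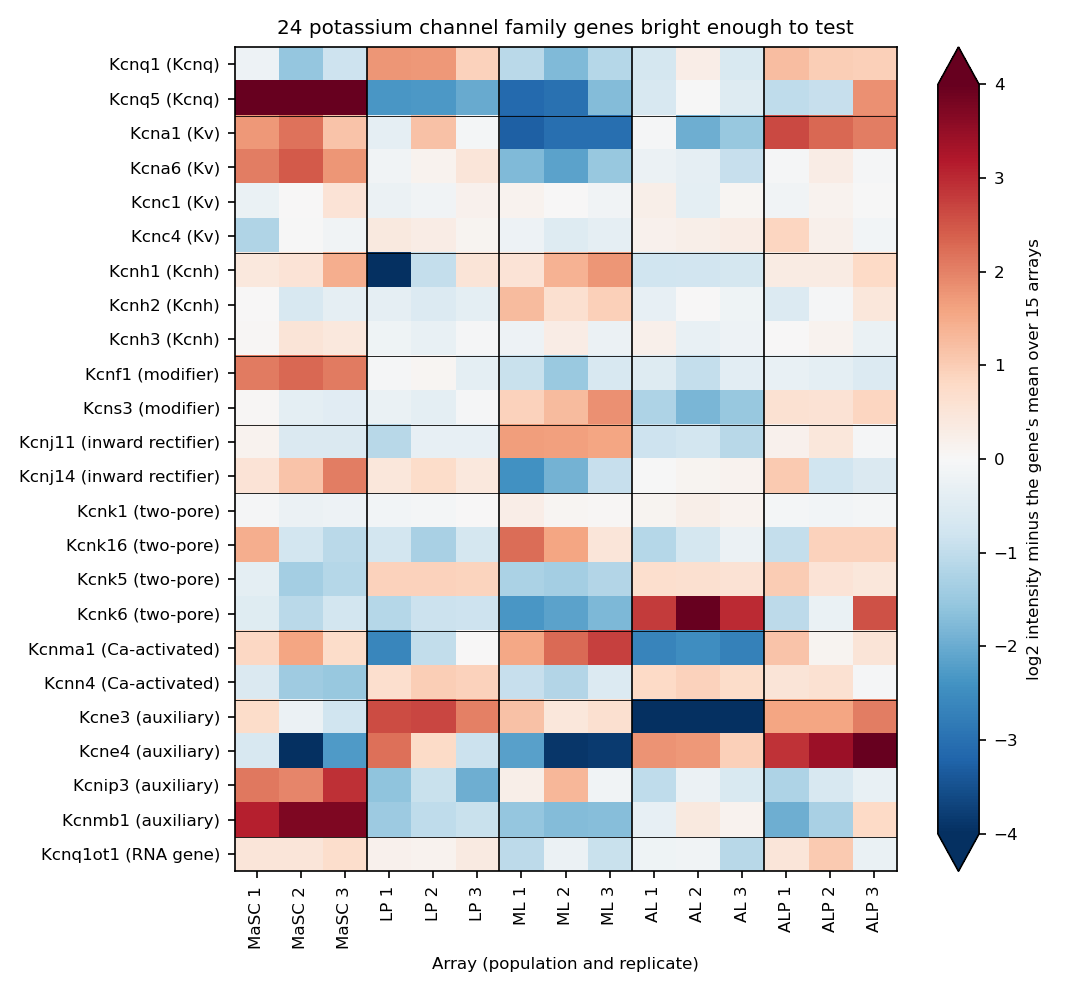
The map shows, for the 24 tested members (rows, grouped by class) on the 15 arrays (columns, grouped by population), log2 intensity minus the gene's mean over the 15 arrays, red above and blue below that mean, with colours saturating at 4. Kcnq5 and Kcnmb1 were red on the 3 MaSC arrays, Kcne3 was deep blue on the 3 AL arrays alone, Kcnk6 was red on the 3 AL arrays and on the third ALP array, and Kcnma1 was blue in AL and red in ML.

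By comparison, the members that passed (adjusted p under 0.05) were 9 higher and 8 lower in MaSC than the LP/ML mean, where 22.6% and 29.9% of all genes passed. LP against ML gave 10 higher and 7 lower (background 27.3% and 21.7%). AL against LP gave 3 higher and 5 lower (21.3% and 24.2%), and AL against ML 10 higher and 7 lower (28.7% and 24.8%). AL against ALP gave 2 higher and 7 lower (18.7% and 21.2%), and these comparisons share arrays. ALP against LP gave 2 higher and 0 lower (3.58% and 3.97%). In that comparison limma gave 7 members higher and 0 lower at an unadjusted p under 0.05, where 11.9% and 13.8% of all genes lay, and limma with array weights 7 higher and 2 lower, where 14.7% and 20% of all genes passed. Without ALP replicate 3, AL against ALP gave 2 higher and the same 7 lower (background 21.8% and 18.8%), with Kcnmb1 in place of Kcnk1 among the higher, and ALP against LP gave 1 higher and 0 lower (1.76% and 2.24%). The member shares above the background, such as 37.5% for genes higher in MaSC (of these 9, 4 were tested through MaSC alone) and 41.7% for genes higher in LP than ML, exceeded it by a few genes of the 24, and the shares of genes higher in AL than LP (12.5%) or ALP (8.33%) lay below it. The median log2 difference over the 24 members was 0.28 for MaSC against LP and ML (all genes -0.09), 0.58 for LP against ML (0.04), -0.05 for AL against LP (-0.03), 0.32 for AL against ML (0.03), -0.29 for AL against ALP (-0.02) and 0.24 for ALP against LP (-0.02). The median size of the difference regardless of sign was larger over the members than over all genes in each comparison. For LP against ML it was 1.70 against 0.43. The members were not matched to all genes on brightness, and some entered testing through the population in which they were high. The part of either in these sizes was not tested.

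**Figure D2:**
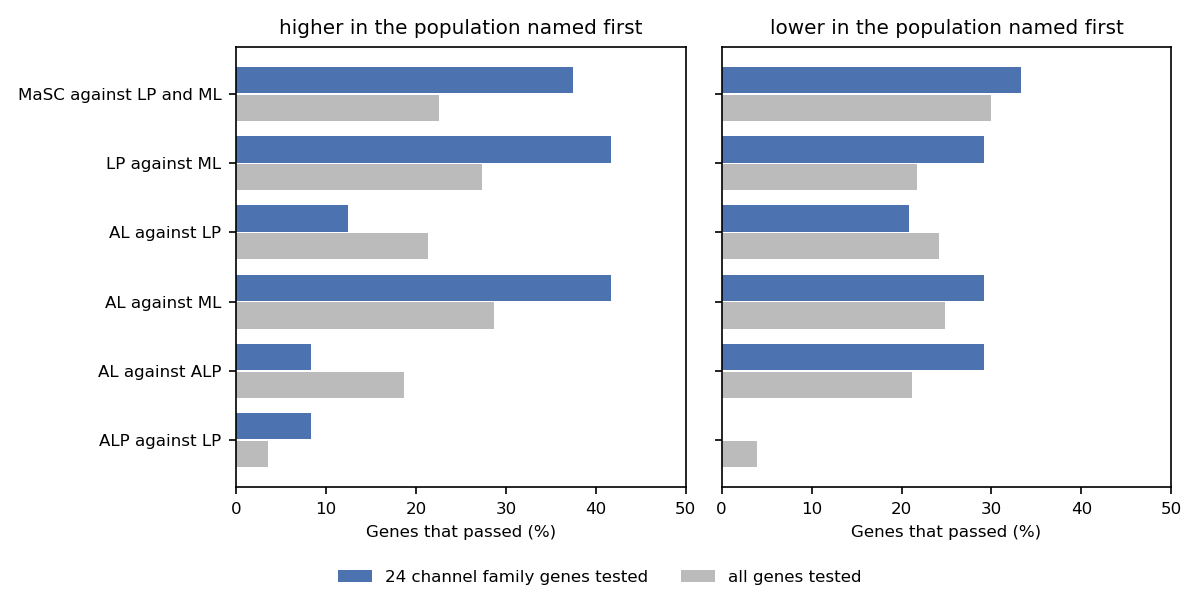
Bars give the percentage of the 24 tested members (blue) and of all 12108 genes tested (grey) that passed in each of 6 comparisons, higher in the population named first on the left and lower on the right. The largest member shares were 41.7%, for genes higher in LP or in AL than ML, and no member was lower in ALP than LP.

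Kcnn4 and Kcnk5 were higher on all LP, AL and ALP arrays than on any MaSC or ML array. Kcnn4, the intermediate-conductance calcium-activated channel of many secretory epithelia, gave intensities of 8769, 10858 and 10338 in LP and 9469, 10387 and 9058 in AL. ALP arrays gave 7911, 8451 and 5298, MaSC arrays 3672, 2038 and 1930.1, and ML arrays 2919, 2446 and 3789. The lowest of the first 3 populations, 5298, lay above the highest of the others, 3789. Kcnn4 was 3.31-fold higher in LP than ML (log2 difference 1.73, SE 0.25, adjusted p = 0.000230) and 3.21-fold higher in AL than ML (adjusted p = 0.000176). It was 4.08-fold lower in MaSC than LP (adjusted p = 0.000123). No difference passed between AL and LP, between AL and ALP or between ALP and LP. A second Kcnn4 probe set gave the same directions, with a log2 difference of 1.89 for LP against ML (adjusted p = 0.000166). The 7 luminal progenitor markers split the populations in the same way, with sums of 32950 to 41827 in LP, AL and ALP against 9833 to 20236 in MaSC and ML, and so did the fibroblast markers. The part of either list in the levels of Kcnn4 and Kcnk5 was not tested.

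Kcnk5, an alkaline-activated background channel known from the kidney tubule, showed the same split. Its intensities were 4822, 4798 and 4729 in LP, 4029, 3977 and 3768 in AL and 5176, 3746 and 3492 in ALP, against 1925, 984 and 1141 in MaSC and 1065, 993 and 1134 in ML. Again no array of LP, AL or ALP overlapped with MaSC or ML. The gene was 4.50-fold higher in LP than ML (log2 difference 2.17, SE 0.21, adjusted p = 1.66e-05), 3.69-fold higher in AL than ML (adjusted p = 1.84e-05) and 3.70-fold lower in MaSC than LP (adjusted p = 6.27e-05). Kcnk16, its neighbour on chromosome 14 and a tandem-pore channel known from pancreatic islets, ran the other way between ML and LP or AL. It gave 994, 623 and 294 in ML against 128, 85.6 and 129.7 in LP and 95.9, 130.2 and 179.9 in AL. ALP arrays gave 107.8 to 399.8 and overlapped with ML, and the fall from ML to ALP did not pass (2.19-fold, adjusted p = 0.217). The ML arrays were spread more than 3-fold, and 1 MaSC array reached 575. Kcnk16 was 5.05-fold lower in LP than ML (log2 difference -2.34, SE 0.69, adjusted p = 0.0153), and the call was lost when LP replicate 2 or ML replicate 1 was left out (adjusted p up to 0.0631 over the alternatives). The fall from ML to AL (4.33-fold, adjusted p = 0.0221) was lost without any 1 of ML 1, ML 2, AL 1 and AL 2 (adjusted p up to 0.0865).

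Kcnk6, a further tandem-pore background channel, was high in AL, the population taken at midgestation. Its intensities were 529.7, 1620.3 and 614 in AL, against 34.9 to 43.3 in LP, 36.4 to 55.2 in MaSC and 15.2 to 22.2 in ML. ALP gave 37.5, 64.4 and 450.1, the last on the array that stood apart. Outside AL only that array exceeded its median, so the AL arrays alone took Kcnk6 past the brightness filter. A difference somewhere was thus built into its selection for testing. AL exceeded every other array, by 20.2-fold over LP (log2 difference 4.34, SE 0.72, adjusted p = 0.000569) and 44.8-fold over ML (5.49, adjusted p = 6.32e-05; 24.2-fold with 16 added to each intensity). Against ALP the fold was 7.85 (2.97, adjusted p = 0.00670). It rose to 16.4 without ALP replicate 3 (adjusted p = 5.01e-05), and the log2 difference was 2.25 without ALP replicate 1. With the spread estimated from AL and ALP arrays alone the call against ALP was lost (adjusted p = 0.0775, the highest over the alternatives, the lowest being 1.28e-05). Kcnk1, a related background channel, was bright on all arrays, between 6439 and 9082. Its highest mean was in AL (8112, 8818 and 8352), but ML arrays gave 7885 to 9082, and AL against ML did not pass (1.01-fold, adjusted p = 0.860). AL lay 1.16-fold above LP (adjusted p = 0.0417). That call was lost without a filter, with the mean over probe sets and under both replicate blocks. It was also lost without AL 1, AL 2, AL 3, LP 1, LP 2 or ALP 2 (adjusted p up to 0.134).

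**Figure D3:**
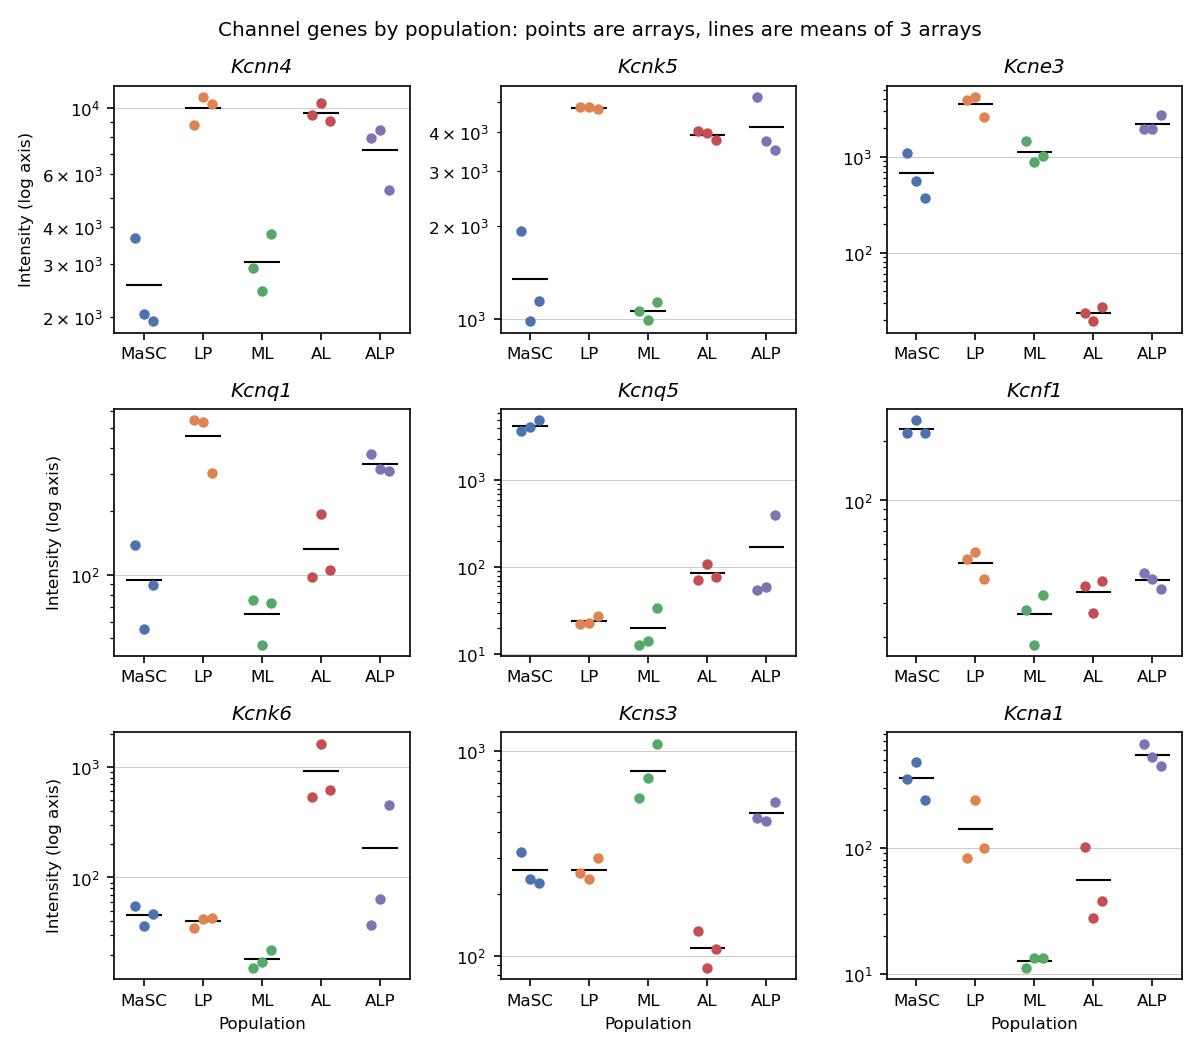
Each panel gives the intensity (log axis) of 1 member on the 3 arrays of each population, with the mean as a line. Kcnn4 and Kcnk5 separate LP, AL and ALP from MaSC and ML, Kcne3 falls to 19.1 to 27.0 in AL, Kcnq5 and Kcnf1 are high in MaSC, Kcnk6 is high in AL, Kcns3 is high in ML, and Kcna1 is highest in ALP and lowest in ML.

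Kcnq1 and its Kcne partners had 3 different patterns. Kcnq1 encodes a voltage-gated pore that becomes constitutively open when joined by Kcne3, the combination known from colon and airway epithelium. Kcnq1 gave 541, 529 and 306 in LP and 375, 317 and 312 in ALP, against 98.1, 193 and 105 in AL, 139, 55.2 and 89.6 in MaSC and 75.9, 46.6 and 73.1 in ML. LP and ALP lay above all arrays of the other 3 populations. The gene was 6.97-fold higher in LP than ML (log2 difference 2.80, SE 0.36, adjusted p = 0.000105). It was 3.52-fold lower in AL than LP (-1.82, adjusted p = 0.00184) and 2.65-fold lower in AL than ALP (-1.40, adjusted p = 0.00949), or 2.74-fold without ALP replicate 3 (adjusted p = 0.0180).

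Kcne3 itself was high in LP (3937, 4164 and 2607) and ALP (1926, 1934 and 2709.8), intermediate in ML (1458, 889.9 and 1016) and MaSC (1093, 557 and 373), and near the bottom of the scale in AL (23.4, 19.1 and 27.0). The AL arrays lay more than 10-fold below every other array. AL was 152-fold lower than LP (log2 difference -7.25, SE 0.35, adjusted p = 2.85e-07), 94.1-fold lower than ALP (adjusted p = 5.96e-07) and 47.7-fold lower than ML (adjusted p = 3.13e-07). Ratios to such dim values depend on the scale: with 16 added to each intensity the folds were 89.9 against LP, 55.7 against ALP and 28.5 against ML, and all 3 differences passed in every alternative. Without ALP replicate 3 the AL level was 84.0-fold below ALP. Kcne3 was also 3.19-fold higher in LP than ML (1.67, SE 0.35, adjusted p = 0.00215).

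Kcne4, which inhibits Kcnq1 when joined to it, was highest in ALP, at 1323, 1944 and 4843. AL gave 628, 602 and 346 and LP 829, 307 and 98.7, while MaSC gave 116, 6.21 and 37.7 and ML 40.3, 12.2 and 12.6. LP and AL did not overlap with ML, but LP arrays ranged over 8-fold. Kcne4 was 27.6-fold higher in AL than ML (log2 difference 4.79, SE 1.01, adjusted p = 0.00190) and stood 15.9-fold higher in LP than ML (3.99, SE 1.01, adjusted p = 0.00693). The latter was 3.24 without LP replicate 1 and 4.78 without LP replicate 3, and it passed in all alternatives. With 16 added to each intensity the folds over ML were 14.7 for AL and 8.83 for LP. ALP lay above all LP arrays, but that difference did not pass (7.92-fold, adjusted p = 0.0925, or 5.48-fold and 0.250 with the third ALP array left out). The fibroblast marker sums fell in the same array order in LP (55005, 47804 and 37073), were lowest in ML and were highest on the ALP array with the highest Kcne4, and their part in Kcne4 was not tested. In such bulk samples fewer cells of a type and less RNA per cell cannot be told apart.

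Large-conductance (BK) channels open to both calcium and voltage. The genes of their pore, Kcnma1, and of its partner Lrrc26 had their highest means in ML, and the partner gene Kcnmb1 in MaSC. Kcnma1 gave 1244, 2064 and 2848 in ML, 769, 1276 and 715 in MaSC, 946, 465 and 616 in ALP, 69.8, 218 and 439 in LP and 68.7, 76.9 and 65.9 in AL. ML and MaSC overlapped by 1 array, and AL and LP met at the lowest LP array. Kcnma1 was 27.6-fold lower in AL than ML (log2 difference -4.79, SE 0.55, adjusted p = 2.33e-05) and 9.20-fold lower in AL than ALP (-3.20, adjusted p = 0.000881). Without ALP replicate 3 the last fold was 9.43. LP was 10.3-fold lower than ML (-3.37, SE 0.55, adjusted p = 0.000482), with log2 differences of -2.65 without LP replicate 1 and -3.98 without LP replicate 3. The 3 LP arrays rose in the same order as their mature luminal marker sums (10996, 14727 and 17506), whose part in the LP level was not tested.

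Kcnmb1, the beta subunit known from smooth muscle that raises the calcium sensitivity of BK channels, was high only in MaSC, at 328, 501 and 499. Other arrays gave 9.62 to 49.3, except 65.2 on the third ALP array. MaSC lay 25.3-fold above LP, 36.5-fold above ML (adjusted p = 1.32e-05) and 11.0-fold above AL (adjusted p = 0.000180). With 16 added to each intensity the fold over the LP/ML mean was 14.8 in place of 30.4. The AL arrays (30.2, 49.3 and 41.8) exceeded those of ML (12.9, 11.4 and 11.5) by 3.33-fold (adjusted p = 0.0153; 2.00-fold with 16 added), lost without AL replicate 2 (adjusted p up to 0.0533). Basal marker sums ran with these values in AL (26000 to 31521) and the third ALP array (48435), against 1795 to 7365 in LP and ML. The first and second ALP arrays also exceeded LP and ML in basal sums (14192 and 11539), while the lowest ALP value of Kcnmb1, 9.62, lay below every LP array. The part of the basal markers was not tested. The 2.30-fold excess of AL over LP did not pass (adjusted p = 0.0814). Lrrc26, a gamma subunit that lets BK channels open at resting voltage in epithelial cells and is no member by symbol, had its highest mean in ML and its lowest in AL, as the pore did. Its intensities were 909, 1156 and 1214 in ML and 97.6, 121 and 109.7 in AL, 9.95-fold lower in AL than ML (adjusted p = 2.50e-05). Unlike those of the pore, its MaSC arrays (422, 247 and 125) overlapped with LP (176, 272 and 339.6), and MaSC lay 2.23-fold below the LP/ML mean (adjusted p = 0.0124).

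ATP-sensitive channels couple the membrane voltage to metabolism and consist of an inward rectifier pore and a sulfonylurea receptor. The pore gene Kcnj11 gave 431, 422 and 402 in ML, against 147, 89.1 and 89.9 in MaSC, 62.0, 107 and 106 in LP, 75.4, 81.1 and 62.0 in AL and 151, 184 and 129.6 in ALP. ML stood above every other array. Kcnj11 was 4.71-fold lower in LP than ML (log2 difference -2.23, SE 0.24, adjusted p = 3.23e-05), 5.78-fold lower in AL than ML (adjusted p = 5.84e-06) and 2.12-fold lower in AL than ALP (adjusted p = 0.00412). Without ALP replicate 3 the last fold was 2.30. Abcc8, the sulfonylurea receptor gene 3570 bases away on chromosome 7, had 1478, 1345 and 1817 in ML and 45.6, 27.8 and 32.0 in AL, a 44.7-fold difference (adjusted p = 4.53e-06), with 78.8 to 804 in the other populations. Abcc9, a further sulfonylurea receptor gene, ran the other way. It gave 3.39 to 13.5 in ML against 440 to 653 in LP and 449 to 670 in AL. Abcc9 was 97.9-fold higher in LP than ML (adjusted p = 0.000107) and 89.7-fold higher in AL than ML (adjusted p = 6.84e-05). Ratios to such dim ML values depend on the scale. Fibroblast markers were also higher in LP and AL than ML, and their part was not tested. The alternative pore Kcnj8, known from pericytes and vascular smooth muscle, was not tested. It gave 16.6 to 85.8 on 14 arrays and 1220.2 on the third ALP array. Kcnj14, a further inward rectifier, was low in ML (37.4, 54.7 and 108) and was 4.84-fold higher in LP (276, 335 and 269, adjusted p = 0.00327). It was highest in MaSC (298, 443 and 834), 3.61-fold above the LP/ML mean (adjusted p = 0.00427). Against LP alone the MaSC excess of Kcnj14 did not pass (1.64-fold, adjusted p = 0.285), and the arrays overlapped.

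**Figure D4:**
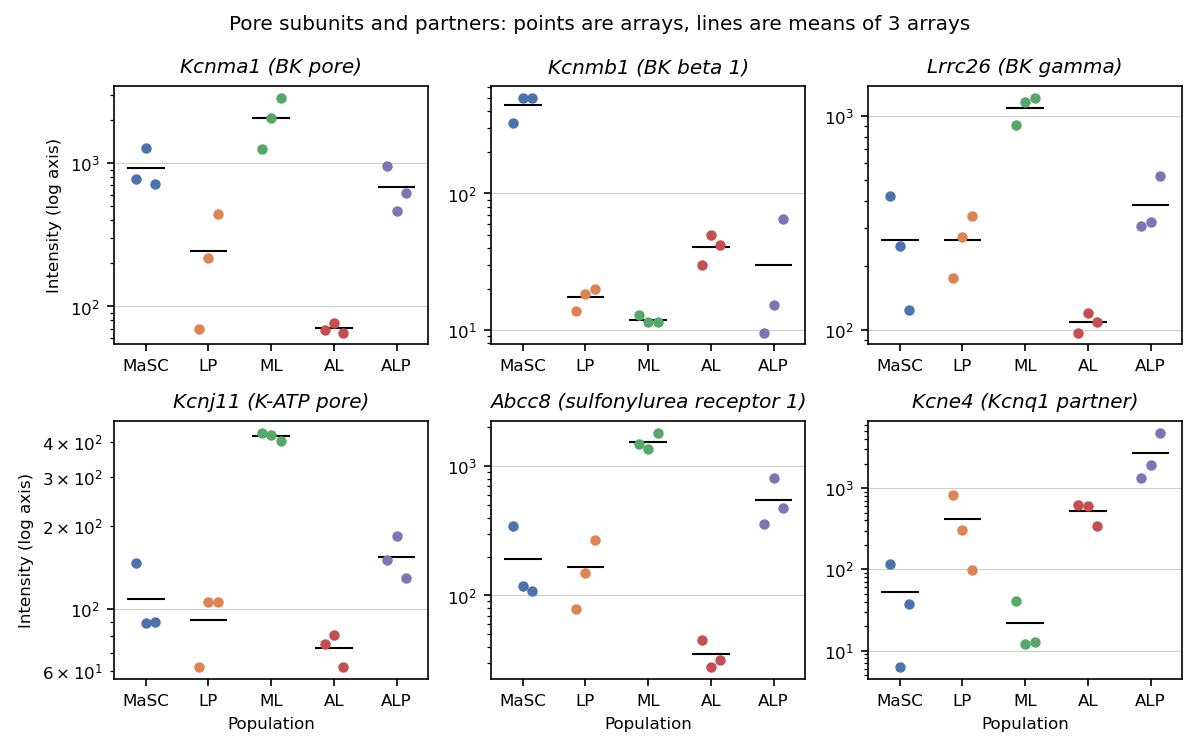
Each panel gives the intensity (log axis) of a pore subunit or partner gene on the 3 arrays of each population, with the mean as a line, and levels are to be compared within a panel only. Kcnma1, Lrrc26, Kcnj11 and Abcc8 have their highest means in ML and their lowest in AL, Kcnmb1 is high in MaSC, and Kcne4 is highest in ALP.

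Of the 7 members with their highest mean in MaSC, Kcnj14 and Kcnq1ot1 exceeded the array median in several populations. Outside MaSC, Kcnq5 exceeded it only on the third ALP array, so its MaSC arrays alone met the brightness filter. Kcnq5, a pore of the M-type current known from neurons and smooth muscle, gave 3726, 4151 and 4886 in MaSC, against 12.8 to 33.6 in LP and ML, 70.8, 110.0 and 77.4 in AL and 55.3, 59.3 and 399 in ALP. MaSC was 176-fold above LP, 231-fold above ML and 50.1-fold above AL (log2 difference 5.65, SE 0.62, adjusted p = 1.77e-05). With 16 added to each intensity the fold over the LP/ML mean was 113. The small excess of AL over LP (3.52-fold, adjusted p = 0.0322) was lost with 16 added, with the mean over all probe sets and without any 1 of the 6 arrays of AL and LP (adjusted p up to 0.100), and basal markers moved with it, as for Kcnmb1. A second Kcnq5 probe set was 4.29 log2 units higher in MaSC than the LP/ML mean (adjusted p = 1.14e-05).

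Kcnf1, a silent modifier subunit, gave 219.9, 256 and 221 in MaSC and 18.4 to 54.6 on the other 12 arrays. It was 6.62-fold above the LP/ML mean (log2 difference 2.73, SE 0.18, adjusted p = 1.26e-06) and 6.88-fold above AL. Kcna6, a Shaker-related voltage-gated pore, gave 204, 267 and 168 in MaSC, 44.3 to 69.5 in LP, 11.3 to 17.2 in ML, 25.8 to 42.2 in AL and 47.2 to 60.5 in ALP. It was 7.51-fold higher in MaSC than the LP/ML mean (2.91, adjusted p = 2.34e-06) and stood 3.90-fold higher in LP than ML (1.96, adjusted p = 8.05e-05), or 4.86-fold and 2.36-fold with 16 added to each intensity. Kcnip3, a calcium-binding partner of Kv channels that also acts as a transcriptional repressor, gave 227, 202 and 398 in MaSC, 61.7, 132 and 47.9 in ML and 13.6 to 44.4 elsewhere. It was 7.14-fold higher in MaSC than the LP/ML mean (2.84, adjusted p = 9.04e-05), and 3.92-fold lower in LP than ML (-1.97, adjusted p = 0.00252; 2.58-fold with 16 added). Kcnf1, Kcna6, Kcnip3 and Kcnmb1 passed the brightness filter through MaSC alone, so a difference somewhere was built into their selection for testing. The same holds for Kcnq5, whose MaSC arrays sufficed for the filter.

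Kcna1, a delayed-rectifier pore gene 62526 bases from Kcna6 on chromosome 6, shared its low level in ML but not its MaSC peak. Its intensities were 669, 519.6 and 443 in ALP, 351, 481 and 237 in MaSC, 82.3, 239 and 99.95 in LP, 102, 27.7 and 37.5 in AL and 11.1, 13.2 and 13.3 in ML. ML lay below every other array, and ALP overlapped only with MaSC. Kcna1 was 10.0-fold higher in LP than ML (log2 difference 3.33, SE 0.48, adjusted p = 0.000220), 11.3-fold lower in AL than ALP (-3.50, adjusted p = 0.000194) and 8.64-fold higher in MaSC than the LP/ML mean (adjusted p = 0.000124). With 16 added to each intensity the first and the last of these folds were 5.005 and 5.62. The fall from ALP to AL was 12.5-fold without ALP replicate 3. Kcna1 was 1 of the 2 members higher in ALP than LP (4.28-fold, adjusted p = 0.0262). That call held without ALP replicate 3 (4.70-fold, adjusted p = 0.0490) but was lost without LP 1, LP 3 or ALP 2 and with only the ALP and LP arrays fitted (adjusted p up to 0.106). Its fall from LP to AL (2.65-fold, adjusted p = 0.0322) was lost without LP 2, AL 2 or AL 3 and with only the AL and LP arrays fitted (adjusted p up to 0.136). A second probe set of Kcna1 gave the same directions.

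Kcns3, a silent modifier subunit of voltage-gated channels, had its peak in ML instead, at 586, 733 and 1084. ALP gave 468, 457 and 565, MaSC 322, 237 and 225, LP 254, 235 and 299, and AL 132, 87.1 and 108. AL lay below and ML above every other array. Kcns3 was 7.21-fold lower in AL than ML (log2 difference -2.85, SE 0.23, adjusted p = 1.58e-06), 4.60-fold lower in AL than ALP (adjusted p = 2.74e-05), 2.43-fold lower in AL than LP (adjusted p = 0.000870) and 2.96-fold lower in LP than ML (adjusted p = 0.000220). The fall from LP to AL was lost with the mean over all Kcns3 probe sets (adjusted p = 0.134, the highest over the alternatives, the lowest being 3.32e-05). The fall from ALP to AL was 4.30-fold without ALP replicate 3. Kcns3 was the other member higher in ALP than LP (1.89-fold, adjusted p = 0.0344). That call was lost without ALP replicate 3 (1.77-fold, adjusted p = 0.0990) and without LP 1, LP 2, LP 3, AL 3 or ALP 2. It was also lost without a filter, under the block of MaSC, LP and ML replicate numbers and with only the ALP and LP arrays fitted (adjusted p up to 0.122).

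Among the Kcnh pore subunits, Kcnh2, known for cardiac repolarisation, gave 269, 174 and 215 in ML and 71.3 to 151 elsewhere. It was 2.61-fold lower in LP than ML (log2 difference -1.39, SE 0.24, adjusted p = 0.000759) and 2.18-fold lower in AL than ML (adjusted p = 0.00212). Kcnh2 passed the brightness filter through ML alone, so a difference somewhere was built into its selection for testing. Kcnh1 did not pass the F test (adjusted p = 0.0652), although LP against ML passed on its own (8.11-fold lower, log2 difference -3.02, SE 0.99, adjusted p = 0.0249). Its LP arrays gave 60.2, 929 and 2549, again in the order of their mature luminal marker sums, against 2621, 4712 and 6150.0 in ML. The log2 difference was -1.46 without LP replicate 1 and -4.16 without LP replicate 3, and the call was lost without ML 2 or ML 3 and with only the LP and ML arrays fitted (adjusted p up to 0.112). A second Kcnh1 probe set gave a log2 difference of -3.16 for LP against ML (adjusted p = 0.00678) and of -3.36 for AL against ML (adjusted p = 0.00381). On the probe set chosen by the rule, Kcnh1 was also lower in AL than ML, but that difference did not pass (adjusted p = 0.109). Kcnh3, a neuronal relative, gave 131, 182 and 171 in MaSC against 114, 105 and 124 in LP, which did not overlap, and 104 to 182 on all arrays. It did not pass the F test, although it was 1.34-fold higher in MaSC than the LP/ML mean (log2 difference 0.43, adjusted p = 0.0446). That call was lost without a filter and under quantile normalisation, median centring, a variance trend or the block of all replicate numbers. It was also lost with the arrays compared alone and without any 1 of 8 arrays (adjusted p up to 0.207). Kcnc1 gave 159 to 304 on all arrays, with populations that overlapped.

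Kcnq1ot1, an imprinted noncoding RNA transcribed from within the Kcnq1 interval on chromosome 7, did not have the pattern of Kcnq1. MaSC arrays gave 1770.5, 1789 and 2073, LP arrays 1454, 1421 and 1649, and the others 625, 1077 and 689 in ML, 1139, 1155 and 590.5 in AL and 1780.0, 2616 and 1068 in ALP. MaSC and LP lay above ML, and ALP and AL overlapped. It was 1.94-fold higher in LP than ML (log2 difference 0.96, SE 0.33, adjusted p = 0.0304) and 1.86-fold lower in AL than ALP (adjusted p = 0.0489). Both calls were lost under quantile normalisation and under median centring. The first was also lost without any 1 LP array, ML 1 or ML 3 (adjusted p up to 0.111), and the second without any array other than ML 2 and ALP 3 (adjusted p up to 0.198). Without ALP replicate 3 the fold between ALP and AL was 2.35 (adjusted p = 0.00878). Further probe sets of Kcnq1ot1, 2 bright enough to test, gave LP above ML (adjusted p = 0.0149 and 0.0157).

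The 60 members too dim to test still held values that stood apart on a few arrays. Kcnd2, an A-type voltage-gated pore, was dim on the probe set chosen by the rule, but 2 of its other probe sets could be tested. Their mean intensities were 285 and 202 in LP against 11.7 and 20.5 in ML, the ML means lying below every array median. They were higher in LP than ML by 5.69 and 3.30 log2 units (adjusted p = 0.000936 and 0.000425). With 16 added to each intensity, a setting applied to these probe sets after seeing the data, the differences were 3.53 and 2.56 (adjusted p = 0.000492 and 0.000558). Fibroblast markers were also higher in LP than ML, and their part was not tested. Kcnc2 gave 562 and Kcnd3 343 on the third ALP array, against at most 70.7 for Kcnc2 and at most 249.7, in a MaSC array, for Kcnd3 elsewhere. Kcnmb4, another BK beta subunit, gave 88.5, 84.3 and 161 in MaSC and 4.74 to 64.8 on the other arrays, and Kcnab3, an auxiliary Kv subunit, gave 131, 128 and 88.8 in ML and 9.96 to 76.3 elsewhere.

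Other genes of potassium transport were followed with a list of 51 pumps, cotransporters, regulators and channel partners, of which 43 had a probe set and 28 could be tested. Of the 28, 9 were higher and 7 lower in MaSC than the LP/ML mean, where 22.6% and 29.9% of all genes passed, and 8 were higher and 7 lower in LP than ML (27.3% and 21.7%). AL had 3 higher and 9 lower than LP (21.3% and 24.2%), 8 higher and 13 lower than ML (28.7% and 24.8%), and 2 higher and 12 lower than ALP (18.7% and 21.2%). ALP had 3 higher and 0 lower than LP (3.58% and 3.97%). With the third ALP array left out, 3 were higher and 10 lower in AL than ALP (21.8% and 18.8% of all genes), and in limma 0 passed between ALP and LP (1.76% and 2.24%), with 5 higher and 1 lower at an unadjusted p under 0.05. Wnk2, a kinase that regulates cation-chloride cotransport, gave 234, 233 and 249.9 in AL against 1384, 1416 and 1841 in LP, 6.42-fold lower (adjusted p = 5.54e-07), while its relative Wnk3 gave 408, 402 and 319 against 95.4, 104 and 90.9, 3.88-fold higher (adjusted p = 8.94e-05). Fxyd6, a modulator of the sodium pump, was 3.51-fold lower in AL than LP (adjusted p = 3.83e-06). Atp12a, a hydrogen-potassium pump, gave 196, 635 and 168 in AL and 9.12 to 54.2 on all other arrays.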

How the data were processed

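RNA was amplified and hybridised to Affymetrix arrays. The authors normalised the arrays with dChip (version and expression model not given in the sources used here) and deposited a linear intensity for every probe set. Of 45101 probe sets, 34958 carried a single symbol, 932 several and 9211 none, and the last 2 kinds were not used. Intensities under 1 were set to 1 and log2 values were computed from the deposited values. Genes were tested if their chosen probe set exceeded the array median on at least 3 of 15 arrays. A linear model with 1 mean per population was fitted to all 15 arrays and 12108 genes with limma 3.58.1 (lmFit, eBayes) in R 4.3.3. Tests were two-sided, with Benjamini-Hochberg adjustment over all genes tested within a comparison and a threshold of 0.05, and the procedure was tested on simulated data. Folds are antilogs of fitted log2 differences, SE is on the log2 scale, and 3 arrays per population limit the precision. Alternatives covered the scale of dim values, the filter, normalisation, probe set choice, variance model, replicate block and leaving out each array. The members, the gene lists and the rule for named genes were chosen with earlier results of these data known. The rule named, per comparison and direction, up to 6 members that passed with the largest differences and no overlap, the 8 brightest members, and up to 3 per class by F; any other member that passed could be named. Channels not among the 84 members were not analysed here, apart from those on the list of other potassium transport genes. Sequences and positions are from RefSeq (GRCm38.p6).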

Additional observations from a re-analysis of the deposited data

How the results depend on the processing

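Of 70 member differences that passed, 50 kept their call under each alternative that gave a value other than leaving out an array, and 20 were lost without at least 1 array, among them the differences of Kcnk1, Kcnk16 and Kcnq1ot1. Over all alternatives 0 reversed and 154 of 1852 values no longer passed. Without a filter on dim probe sets, 40 of 84 members passed the F test (62.3% of all genes), with 16 higher and 11 lower in LP than in ML (18.2% and 14.6% of all genes), 6 higher and 9 lower in AL than in LP (14.1% and 16.2%), 16 higher and 11 lower in AL than in ML (19.9% and 17.4%), 5 higher in AL than in ALP (12%) and 1 higher in ALP than in LP (1.86%). With a stricter filter 4 of 16 members were higher in MaSC than the LP/ML mean (22.7% of all genes). With the mean over all probe sets of a gene, 15 members were tested, of which 3 were higher in MaSC (22.5% of all genes), 4 lower in LP than in ML (21.3%), 2 lower in AL than in LP (23.2%), 4 lower in AL than in ALP (21.3%) and 1 higher in ALP than in LP (3.56%). With array weights 5 of 24 were higher and 10 lower in AL than in LP (30.2% and 36.1%), and 7 higher and 2 lower in ALP than in LP (14.7% and 20%). With only the arrays compared, 0 were higher in AL than in ALP (14.9%) and 0 higher in ALP than in LP (0.0248%). The causes were not tested, apart from the filter, which changes how many members are tested. Leaving out each array in turn gave 19 to 21 members for the F test, 7 to 9 higher and 5 to 9 lower in MaSC, 9 to 11 higher and 6 to 8 lower in LP than in ML, 1 to 4 higher and 3 to 6 lower in AL than in LP, 8 to 11 higher and 5 to 8 lower in AL than in ML, 1 to 2 higher and 6 to 7 lower in AL than in ALP, and 0 to 3 higher and 0 lower in ALP than in LP. Among the lowest of these were the fits without LP replicate 1 or ALP replicate 2 (0 higher in ALP than in LP), without MaSC replicates 2 or 3 or ML replicate 1 (5 lower in MaSC) and without any AL array, LP replicate 1 or LP replicate 2 (1 higher in AL than in LP). Median centring moved the median of all genes from 0.04 to -0.20 for LP against ML and from -0.02 to 0.26 for AL against ALP, and no called member changed direction.

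The replicate numbers were taken as names, because the labels do not say whether a number marks a suspension. By the series' design MaSC, LP and ML came from 3 shared suspensions. Same-numbered arrays of these populations deviated together by correlations of only -0.01 to 0.17. With the replicate block over all numbers, 1 member was higher in AL than in ALP in place of 2. The block over the replicate numbers of MaSC, LP and ML alone gave 21 members for the F test. Both blocks gave 8 members higher in MaSC in place of 9. Under both blocks Kcnk1 and Kcna6 lost their difference between AL and LP. Kcnk1 (AL against ALP) and Kcnh3 (MaSC) were lost under the block of all numbers. Kcns3 (ALP against LP) and Kcnq1ot1 (AL against ALP, and MaSC) were lost under that of the MaSC, LP and ML numbers alone.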
